A study of Mus musculus with 6 samples.

Results

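The genes described here are 9 genes of polyamine synthesis, its antizyme control and polyamine breakdown: Odc1, Amd1, Srm, Sms, Oaz1, Oaz2, Azin1, Sat1 and Paox. They were listed by name, with earlier results of these data known. Of the 9, 5 (Odc1, Srm, Oaz2, Azin1 and Sat1) had a probe set with that symbol alone, among 19937 genes tested. Amd1 and Paox are not listed in the platform annotation used here, and Oaz1 and Sms are listed only on probe sets that carry a further symbol. The samples are 3 cultures of clone #483, a C57BL6 mouse leukaemia of the T-cell acute lymphoblastic type (T-ALL), treated for 2 h with 100 µM 4EGI-1, and 3 cultures titled untreated. 4EGI-1 is a small molecule that keeps eIF4E, which binds the mRNA cap, from joining its partner eIF4G. The series text names DMSO as the other arm, so whether the cultures titled untreated received solvent is not settled. All cells derive from 1 clone. RNA of the pooled polysome fractions of a sucrose gradient was hybridised, 1 array per culture. The arrays hold only polysomal RNA, so a change in the amount of an mRNA and a change in its share on polysomes cannot be told apart, and neither can fewer cells and less RNA per cell.

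Polyamines are small organic cations that bind nucleic acids and are needed for growth. Ornithine decarboxylase (Odc1) makes putrescine from ornithine; S-adenosylmethionine decarboxylase (Amd1) supplies the aminopropyl group with which spermidine synthase (Srm) and spermine synthase (Sms) extend it. Antizymes (Oaz1, Oaz2) bind ornithine decarboxylase and deliver it to the proteasome, and their own synthesis needs a ribosomal frameshift that polyamines stimulate. The antizyme inhibitor (Azin1), an inactive relative of ornithine decarboxylase, binds antizymes and so spares the enzyme. Spermidine/spermine acetyltransferase (Sat1) and polyamine oxidase (Paox) act in breakdown. Odc1 mRNA, with its long structured leader, is a textbook example of an mRNA sensitive to eIF4E.

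Promoter sequence is shown for the genes among these that were lower on polysomes and have an entry in the RefSeq promoter table (GRCm38.p6): Odc1, Oaz2 and Sat1. Each line gives the 100 bases that end just before the transcript start, 5′ to 3′ on the gene's strand. Capitals mark the GC box GGGCGG or, on the other strand, CCGCCC, the motif bound by Sp1-type factors. The positions are chr12:17544773-17544872 (plus strand) for Odc1, chr9:65676448-65676547 (plus strand) for Oaz2 and chrX:155216450-155216549 (minus strand) for Sat1.
Odc1: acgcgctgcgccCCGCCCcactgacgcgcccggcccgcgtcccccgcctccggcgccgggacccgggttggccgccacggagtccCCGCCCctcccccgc
Oaz2: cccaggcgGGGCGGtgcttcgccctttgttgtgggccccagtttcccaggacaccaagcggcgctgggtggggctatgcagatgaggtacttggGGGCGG
Sat1: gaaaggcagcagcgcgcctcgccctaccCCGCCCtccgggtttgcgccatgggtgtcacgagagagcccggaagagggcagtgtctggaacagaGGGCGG

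Each of the 3 printed stretches held 2 GC boxes. In the 250 bases upstream of the start there were 4 in Odc1, 3 in Oaz2 and 2 in Sat1, and 32.7% of all 32851 promoter windows held at least 1. The E-box CACGTG, a palindrome that Myc and related factors bind, was in 0 of these 3 windows and in 6.0% of all. The GC content of the 250 upstream bases was 80.0% for Odc1, 58.0% for Oaz2 and 59.6% for Sat1, against a median of 52.4% over all windows. In the first 50 transcribed bases it was 68.0% for Odc1, 80.0% for Oaz2 and 64.0% for Sat1, against a median of 56.0%. None of these 3 transcript starts in the table was a C followed by 4 pyrimidines, a start like that of terminal oligopyrimidine mRNAs, which 2.5% of all windows had. The arrays do not measure promoter activity, and these matches describe the letters only.

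Across the series the median log2 signal per array was 6.38 to 6.43; precision is limited by having 3 arrays a group. T-cell markers such as Cd3e, Cd3d, Thy1 and Rag1 were measured for 12 of 14 listed genes. T-cell marker values spanned 6.74 to 12.36 with 4EGI-1 and 6.84 to 12.52 in untreated cells, while markers of B, myeloid, erythroid and stromal or endothelial cells (24 of 28 measured) spanned 4.35 to 8.91 and 4.19 to 9.03. Among the 12 T-cell markers 6 fell and 1 rose, beside 11.5% of all genes called lower and 11.5% higher, with a summed log2 signal of 122.46 to 123.2 with 4EGI-1 and 125.26 to 125.53 in untreated cells. Of the markers of other cells Blnk rose by 0.99 and Adgre1 by 0.64 on the log2 scale, 0 fell, and the summed log2 signals overlapped (147.58 to 148.55 with 4EGI-1, 146.9 to 148.65 in untreated cells). RMA gives no signal of 0, so no marker could be called absent. The part of these shifts in the results below was not tested.

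The comparison asks how 4EGI-1 changed the polysomal abundance of polyamine mRNAs. Of the 5 genes measured, 4 fell, 0 rose and 1, Azin1, did not pass the test, by limma at a Benjamini-Hochberg adjusted p under 0.05 over all genes. Over all genes 22.9% were called, 11.5% lower and 11.5% higher. The falls were modest, between 0.29 and 0.45 on the log2 scale, and the median log2 difference of the 5 was -0.30, against -0.03 over all genes. The median log2 difference of all genes called lower was -0.36, with quartiles at -0.48 and -0.29, and the 4 falls lay between these quartiles. The 4EGI-1 and untreated values did not overlap, with 4EGI-1 lower, in 4 of the 5 genes, and in 20.8% of all genes. With 5 measured genes, listed with earlier results of these data known, the counts describe these genes only.

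**Figure D1:**
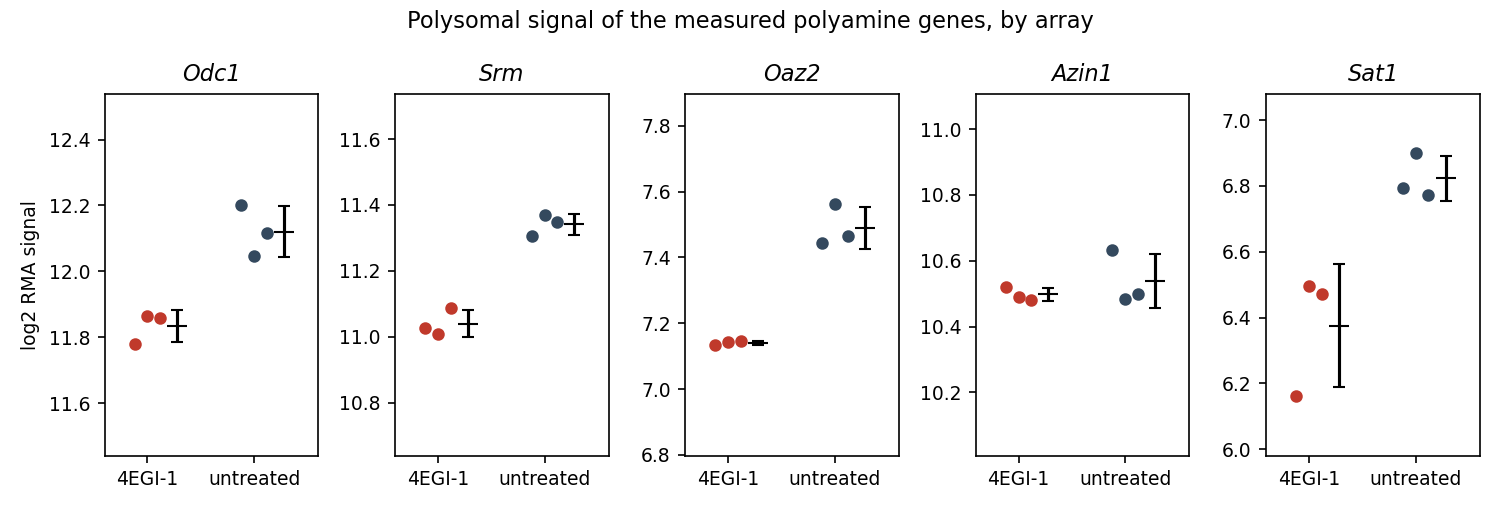
Log2 RMA signal (y axis, the same span of 1.1 in each panel) of the 5 measured polyamine genes in each array, 4EGI-1 left and untreated right; points are arrays and bars the mean and SD of 3. In Odc1, Srm, Oaz2 and Sat1 every 4EGI-1 array lies below every untreated array, while the Azin1 values overlap.

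Among the synthesis genes, Odc1 encodes the first enzyme of the pathway. Its log2 signals were 11.78, 11.87 and 11.86 in 4EGI-1 cells, against 12.20, 12.05 and 12.11 in untreated cells. All 3 treated arrays were below all 3 untreated ones, with untreated replicate 1 the highest and 4EGI-1 replicate 1 the lowest. Odc1 averaged 11.83 ± 0.05 with 4EGI-1 and 12.12 ± 0.08 in untreated cells (SD, n = 3 each), a log2 difference of -0.29 ± 0.07 (SE; 95% interval -0.44 to -0.13; limma adjusted p = 0.0156), or 0.820 times the untreated level. The call ended without untreated replicate 1 (log2 difference -0.25, limma adjusted p = 0.0537) and without 4EGI-1 replicate 1 (-0.26, adjusted p = 0.0531). A second probe set annotated to Odc1 gave log2 signals of 11.25, 11.26 and 11.16 in 4EGI-1 cells and 11.47, 11.48 and 11.42 in untreated cells. This second probe set differed by -0.23 ± 0.06 (SE; limma adjusted p = 0.0465 over all 34760 probe sets, of which 6.99% were called lower). Both probe sets annotated to Odc1 were thus lower with groups that did not overlap. Where each maps in the genome was not checked.

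Srm encodes spermidine synthase, which turns putrescine into spermidine. Its log2 signals were 11.03, 11.01 and 11.09 in 4EGI-1 cells, against 11.31, 11.37 and 11.35 in untreated cells. The groups were separated by more than the spread within either. Srm averaged 11.04 ± 0.04 with 4EGI-1 and 11.34 ± 0.03 in untreated cells (SD, n = 3 each), a log2 difference of -0.30 ± 0.06 (SE; 95% interval -0.44 to -0.17; limma adjusted p = 0.00737), or 0.812 times the untreated level. The intervals of Odc1 and Srm cover nearly the same range; their difference from each other was not tested.

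In the antizyme system the genes measured were Oaz2, an inhibitor of ornithine decarboxylase, and Azin1, which counters antizymes. Oaz2 had log2 signals of 7.14, 7.14 and 7.15 in 4EGI-1 cells, against 7.44, 7.56 and 7.46 in untreated cells. The treated arrays lay very close together and below all untreated arrays. Oaz2 averaged 7.14 ± 0.01 with 4EGI-1 and 7.49 ± 0.06 in untreated cells (SD, n = 3 each), a log2 difference of -0.35 ± 0.06 (SE; 95% interval -0.49 to -0.21; limma adjusted p = 0.00418), or 0.785 times the untreated level. This was the smallest adjusted p among the 5 genes.

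Azin1 had log2 signals of 10.52, 10.49 and 10.48 in 4EGI-1 cells, against 10.63, 10.48 and 10.50 in untreated cells. The groups overlapped, and the value farthest from the others was untreated replicate 1. Azin1 averaged 10.50 ± 0.02 with 4EGI-1 and 10.54 ± 0.08 in untreated cells (SD, n = 3 each). The log2 difference was -0.04 ± 0.07 (SE; 95% interval -0.19 to 0.11; limma adjusted p = 0.726), an interval that leaves room for a fall of up to 0.19 or an increase of up to 0.11 on the log2 scale.

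Whether Odc1 responded differently from its inactive relative Azin1 was asked within each array. The log2 signal of Odc1 minus that of Azin1 was 1.26, 1.38 and 1.38 in 4EGI-1 cells, against 1.57, 1.56 and 1.62 in untreated cells. The groups did not overlap. This within-array value averaged 1.34 ± 0.07 with 4EGI-1 and 1.58 ± 0.03 in untreated cells (SD, n = 3 each), and it was lower with 4EGI-1 by 0.25 (difference -0.25; exact permutation test, two-sided, p = 0.10). With 3 arrays against 3 that test cannot give a p below 0.10, so the difference in response did not reach and could not have reached the threshold. Of 4 pairs planned this was the 1 that could be computed, since Oaz1, Sms and Paox had no probe set of their own symbol alone.

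In polyamine breakdown only Sat1, whose product acetylates spermidine and spermine for export or oxidation, was measured. Its log2 signals were 6.16, 6.50 and 6.47 in 4EGI-1 cells, against 6.79, 6.90 and 6.77 in untreated cells. The groups did not overlap, and 4EGI-1 replicate 1 stood well below the other treated arrays. Sat1 averaged 6.38 ± 0.19 with 4EGI-1 and 6.82 ± 0.07 in untreated cells (SD, n = 3 each). The log2 difference was -0.45 ± 0.10 (SE; 95% interval -0.67 to -0.22; limma adjusted p = 0.0118), or 0.734 times the untreated level. Without 4EGI-1 replicate 1 it was -0.34 (limma adjusted p = 0.0181). Sat1 lay near the median signal of the table (6.40), and detection calls were not used.

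**Figure D2:**
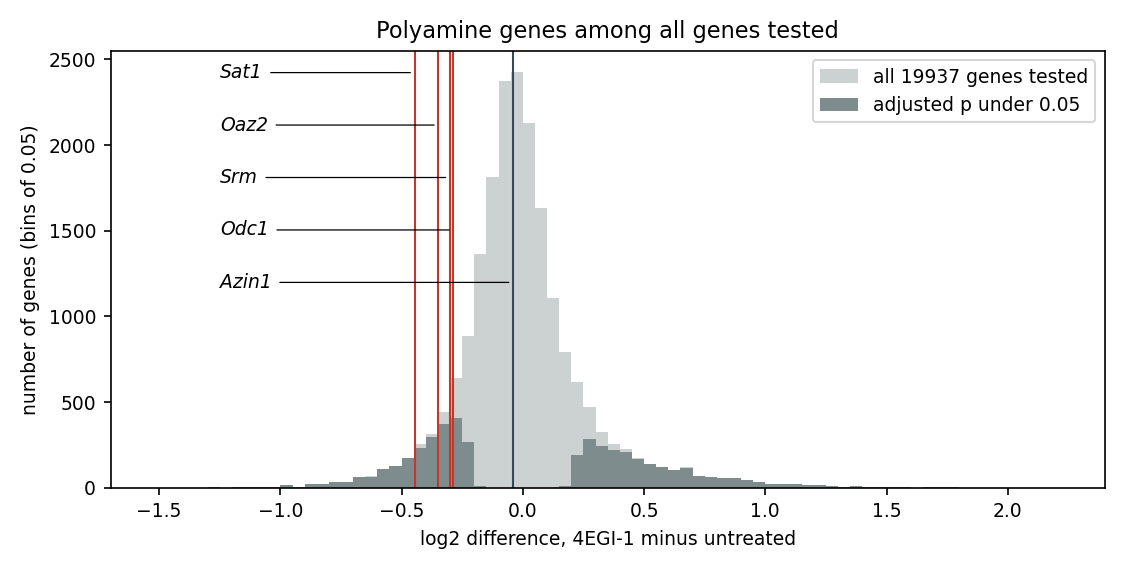
Number of genes (y axis, bins of 0.05) by log2 difference, 4EGI-1 minus untreated (x axis), for all 19937 genes tested (light) and those with an adjusted p under 0.05 (dark); vertical lines mark the 5 measured polyamine genes, red where called. Odc1, Srm, Oaz2 and Sat1 lie in the lower shoulder, at -0.29 to -0.45, and Azin1 near the peak, at -0.04.

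The 5 genes whose pattern over the 6 arrays was most like that of Oaz2 were Mrpl58, Ggact, Gins2, Mrps28 and Klf3. Likeness was the mean absolute difference of log2 values centred on each gene's mean, and it was between 0.010 for Mrpl58 and 0.020 for Klf3. Mrpl58 and Mrps28 encode proteins of the mitochondrial ribosome, Gins2 a subunit of the replicative helicase complex and Klf3 a transcription factor. Their log2 differences were -0.36 for Mrpl58, -0.36 for Ggact, -0.34 for Gins2, -0.33 for Mrps28 and -0.34 for Klf3. Likeness to Oaz2 was what chose them, so these values are a description.

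Genes around the core pathway were described by lists of supply, recycling, use and transport. Measured were 37 of 41 such genes: 6 rose, 6 fell and 25 did not pass (median log2 difference -0.02, against -0.03 over all genes). These counts are 6 of 37 in each direction, beside 11.5% called higher and 11.5% called lower over all genes. The transport list held calls in both directions, and each other list in at most 1.

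**Figure D3:**
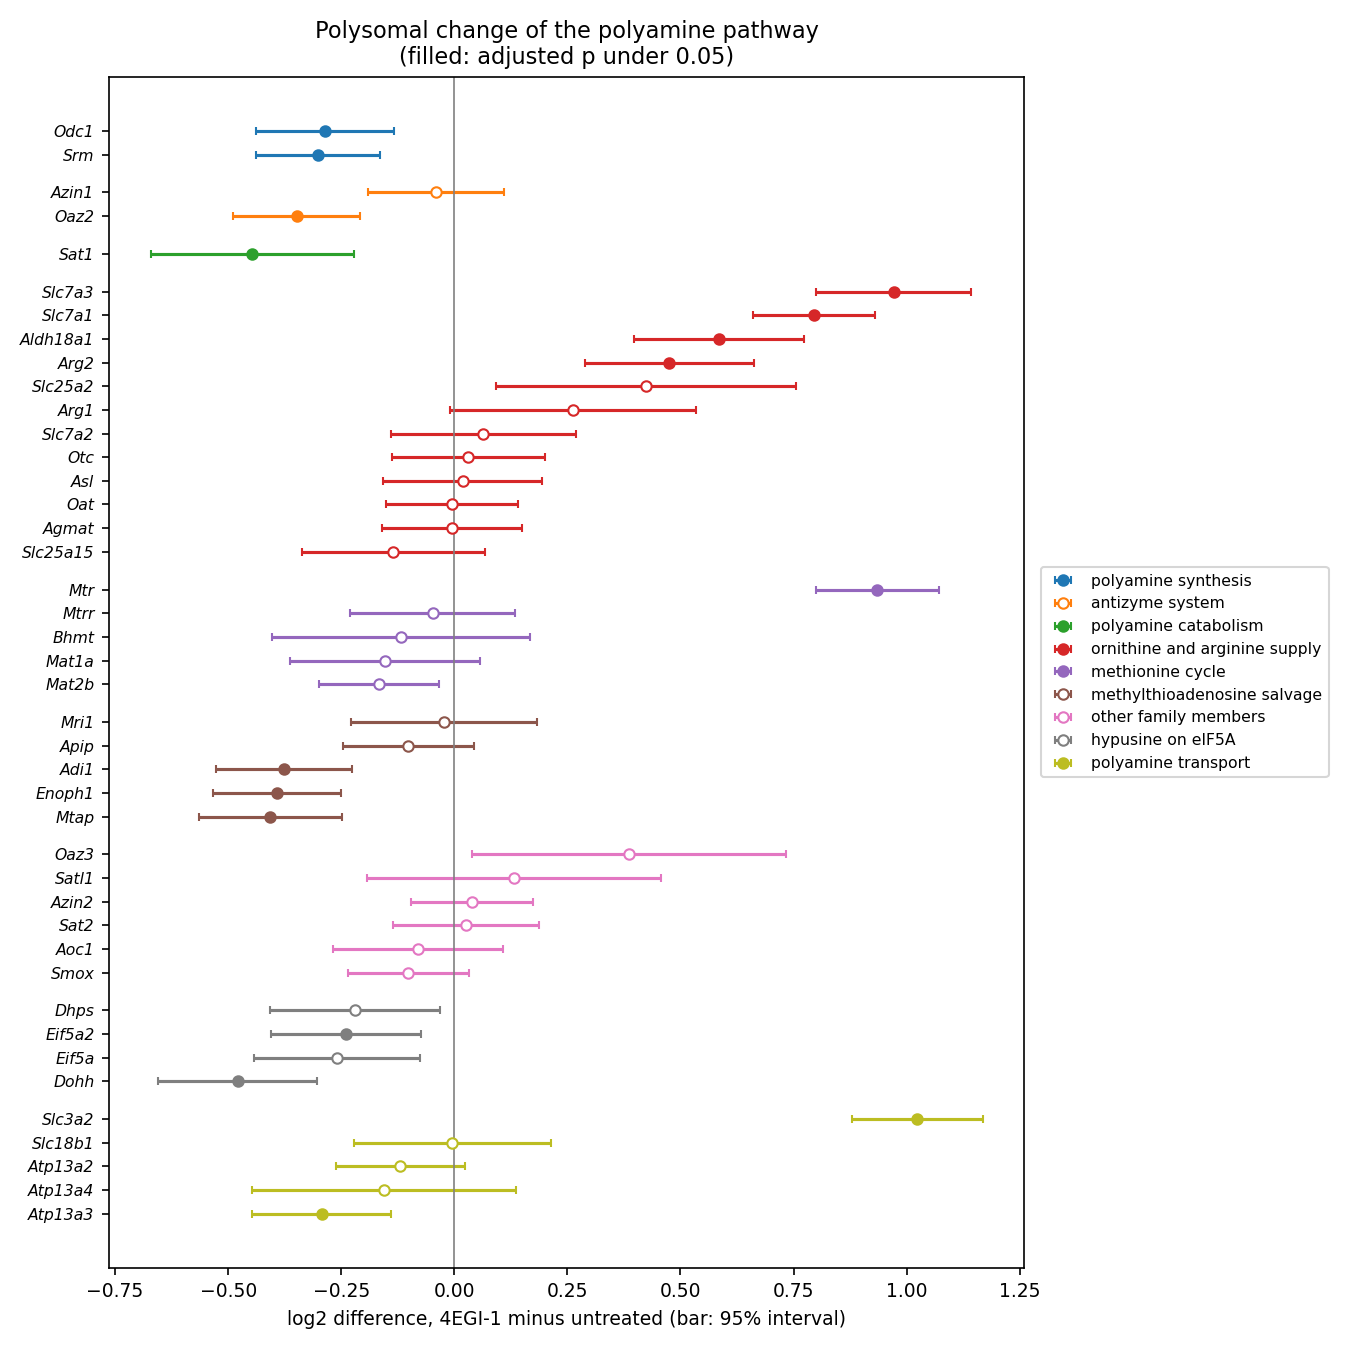
Log2 difference, 4EGI-1 minus untreated (x axis), with its 95% interval for the 5 measured polyamine genes and 37 further genes of the pathway, grouped by role; filled points have an adjusted p under 0.05. Filled points lie right of 0 for 4 genes of ornithine and arginine supply, Mtr and Slc3a2. They lie left of 0 for 4 core genes, 3 genes of methylthioadenosine salvage, the hypusine genes Dohh and Eif5a2, and Atp13a3.

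Ornithine and arginine supply feeds ornithine decarboxylase. Of 12 measured genes of the list 4 rose, 0 fell and 8 did not pass, beside 11.5% of all genes called higher. The median log2 difference of the 12 was 0.16. Slc7a3 and Slc7a1 encode cationic amino acid transporters that import arginine. Slc7a3 had log2 signals of 9.67, 9.55 and 9.70 in 4EGI-1 cells, against 8.64, 8.60 and 8.78 in untreated cells, and rose by 0.97 ± 0.07 (SE; limma adjusted p = 0.000112). Slc7a1 had 9.94, 9.96 and 10.01 in 4EGI-1 cells, against 9.21, 9.16 and 9.16 in untreated cells, and rose by 0.80 ± 0.06 (adjusted p = 9.35e-05). Both of these transporter genes were higher in every treated array. Slc7a2, a further transporter gene of the list, differed by 0.06 ± 0.09 (adjusted p = 0.681), at signals below the median of the table. Aldh18a1, whose enzyme makes the precursor of proline and ornithine from glutamate, rose by 0.59 ± 0.08 (adjusted p = 0.00143). Arg2, the mitochondrial arginase that makes ornithine from arginine, had log2 signals of 6.05, 6.25 and 6.06 in 4EGI-1 cells, against 5.58, 5.75 and 5.61 in untreated cells, and rose by 0.48 ± 0.08 (adjusted p = 0.00366). The Arg2 values lay below the median signal of the table. The log2 difference of Oat, which encodes ornithine aminotransferase, was -0.01 ± 0.06 (adjusted p = 0.968).

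The methionine cycle makes S-adenosylmethionine, from which the aminopropyl groups come. Of 7 listed genes 5 were measured: 1 rose, 0 fell and 4 did not pass, beside 11.5% of all genes called higher. The median log2 difference, -0.12, was that of Bhmt, whose other probe sets differed by 0.002 and -0.02. Bhmt and Mat1a had mean signals below the table median. Mtr, which encodes methionine synthase, had log2 signals of 9.05, 9.03 and 9.07 in 4EGI-1 cells, against 8.06, 8.13 and 8.15 in untreated cells. The groups were far apart, and Mtr rose by 0.94 ± 0.06 (SE; limma adjusted p = 6.27e-05). Mat2b, a regulatory subunit of methionine adenosyltransferase, differed by -0.17 ± 0.06 (adjusted p = 0.0750).

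Spermidine and spermine synthases release methylthioadenosine, which the salvage pathway returns to methionine. Of its 5 measured genes 3 fell, 0 rose and 2 did not pass, beside 11.5% of all genes called lower. The median log2 difference of the 5 was -0.38. Mtap, whose phosphorylase takes the first step, had log2 signals of 9.90, 9.90 and 9.78 in 4EGI-1 cells, against 10.35, 10.21 and 10.24 in untreated cells. Mtap fell by 0.41 ± 0.07 (SE; limma adjusted p = 0.00353), with groups that did not overlap. The enolase-phosphatase gene Enoph1 fell by 0.39 ± 0.06 (adjusted p = 0.00251) and the dioxygenase gene Adi1 by 0.38 ± 0.07 (adjusted p = 0.00404). The log2 differences of the other two, Apip and Mri1, were -0.10 ± 0.06 (adjusted p = 0.317) and -0.02 ± 0.09 (adjusted p = 0.897).

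Spermidine is the source of hypusine, a modified lysine of the translation factor eIF5A. Of the 4 genes of this list 2 fell, 0 rose and 2 did not pass, while the groups did not overlap, with 4EGI-1 lower, in all 4. Over all genes 11.5% were called lower, and 20.8% had groups that did not overlap with 4EGI-1 lower. Dohh, the hydroxylase of the last step, had log2 signals of 5.97, 5.80 and 5.74 in 4EGI-1 cells, against 6.26, 6.32 and 6.36 in untreated cells. Dohh fell by 0.48 ± 0.08 (SE; limma adjusted p = 0.00272), at signals below the median of the table. Eif5a2, a paralogue of Eif5a, fell by 0.24 ± 0.07 (adjusted p = 0.0454), a call that ended in 8 of 15 alternatives, where its adjusted p was 0.0658 to 0.129. Eif5a, by the brighter of its 2 annotated probe sets, differed by -0.26 ± 0.08 (adjusted p = 0.0505). Where these 2 probe sets map in the genome was not checked. Dhps, the deoxyhypusine synthase gene, differed by -0.22 ± 0.08 (adjusted p = 0.0973). With every probe set tested, the brighter Eif5a probe set, used above, had an adjusted p of 0.103, and the second probe set of Eif5a differed by -0.21 ± 0.05 (adjusted p = 0.0482).

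Among 5 genes of polyamine transport 1 rose, 1 fell and 3 did not pass, beside 11.5% of all genes called higher and 11.5% called lower. Atp13a3, a transport ATPase that takes part in polyamine uptake, had log2 signals of 11.73, 11.79 and 11.61 in 4EGI-1 cells, against 11.98, 12.03 and 12.00 in untreated cells. Atp13a3 fell by 0.29 ± 0.07 (SE; limma adjusted p = 0.0142). Its second, dimmer probe set fell by 0.65 ± 0.09 (adjusted p = 0.00748 over all probe sets), so the 2 probe sets went the same way by different amounts, and their mean gave -0.47. Slc3a2, the shared heavy chain of several amino acid transporters, had 11.90, 11.88 and 11.87 in 4EGI-1 cells, against 10.79, 10.86 and 10.93 in untreated cells. Slc3a2 rose by 1.02 ± 0.06 (adjusted p = 5.80e-05).

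Relatives of the core genes did not pass the test in any of 6 measured cases, where limma gave 1 an unadjusted p under 0.05. That gene was Oaz3, the testis antizyme, with log2 signals of 6.17, 6.14 and 6.04 in 4EGI-1 cells, against 5.50, 6.12 and 5.58 in untreated cells. The Oaz3 groups overlapped, and its log2 difference was 0.39 ± 0.15 (SE; adjusted p = 0.111). Smox, the spermine oxidase gene, differed by -0.10 ± 0.06 (adjusted p = 0.275), and Azin2, a second antizyme inhibitor gene, by 0.04 ± 0.06 (adjusted p = 0.710). Oaz3, Sat2, Satl1 and Aoc1 had mean signals below the table median of 6.40 in both groups, and detection calls were not used. The difference between Oaz2 and Oaz3 in their response was not tested.

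**Figure D4:**
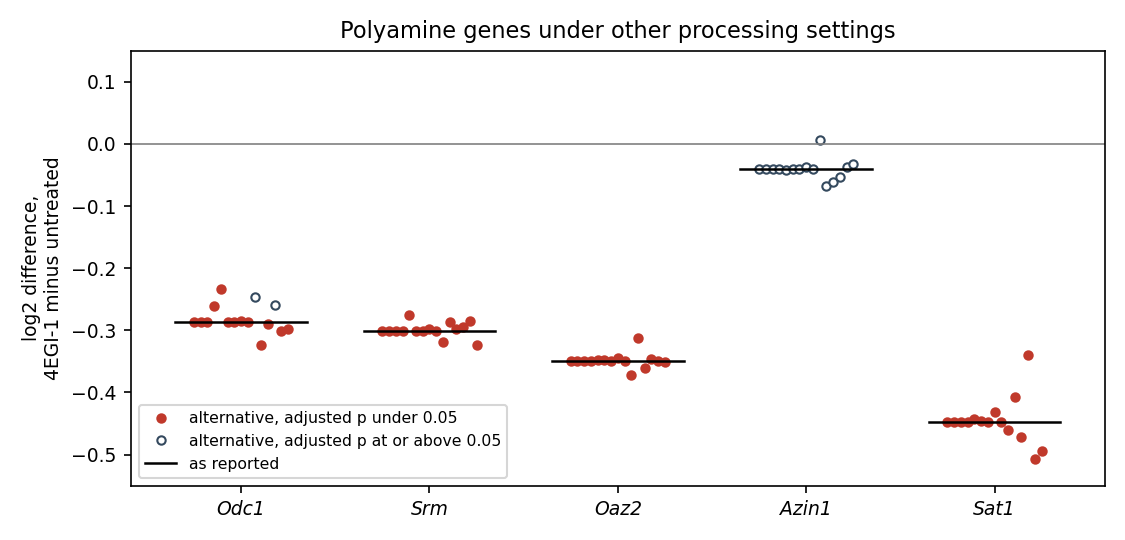
Log2 difference, 4EGI-1 minus untreated (y axis), of the 5 measured polyamine genes as reported (black line) and under 15 other settings each (points; filled red where the adjusted p is under 0.05, open where it is not). Odc1 has 2 open points, Srm, Oaz2 and Sat1 have none, and all points of Azin1 are open, 1 of them above 0.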

How the data were processed

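Deposited log2 signals, 1 for each probe set on each array, came from RMA according to the submitters' processing notes. RMA equalises arrays, so values are relative; the RMA version was not given in the sources used here, nor its settings. Groups came from sample titles. The design text calls the cultures biological replicates. The members and gene lists were chosen with earlier results of these data known.

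Of 34760 probe sets 21640 have 1 symbol in the platform annotation; symbols were updated by Entrez identifier (21553 matched) through a RefSeq table of GRCm38.p6. The probe set with the highest mean was kept per gene, giving 19937 genes. limma 3.58.1 (lmFit, eBayes; R 4.3.3) tested 4EGI-1 minus untreated, two-sided, with Benjamini-Hochberg adjustment over all genes and a threshold of 0.05. Each SE is moderated. Within-array differences used an exact permutation test. The limma fit was tested on simulated data. Alternatives were the replicate block, filters, probe set rules, normalizations, priors, array weights, a threshold of 0.01 and leaving out each array. All 9 genes, every listed pathway gene that passed and the 5 genes most like Oaz2 were named by rule; others were chosen after their values were seen. Promoter windows (250 bases before to 50 after each start) are RefSeq's; 3 of the 5 measured genes had one.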

Additional observations from a re-analysis of the deposited data

How the results depend on the processing

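Of the 5 measured polyamine genes 4 were called lower in each setting that kept all 6 arrays at a threshold of 0.05; at 0.01 there were 2 (Srm and Oaz2), as fewer genes pass, and without 1 array 3 to 4. Over all genes 4573 were called, 2736 at 0.01 and 3546 to 3892 without 1 array; the further pathway genes gave 10 to 17 calls, against 12. Srm, Oaz2 and Sat1 passed in all 15 alternatives, at log2 differences of -0.32 to -0.27, -0.37 to -0.31 and -0.51 to -0.34. Odc1 passed in 13 of 15 (adjusted p 0.000102 to 0.0537). The difference of Azin1 turned to 0.007 without untreated replicate 1 (adjusted p = 0.959; -0.068 to 0.007 without 1 array), and the cause was not tested. Odc1 minus Azin1 ranged from -0.27 to -0.19, with an exact p of 0.10 each time, the smallest possible. With the replicate number as a block 4 polyamine genes, 4071 of all genes and 11 pathway genes were called, and Odc1 had an adjusted p of 0.0424. Deviations of same-numbered arrays correlated at 0.061, 0.107 and -0.021, and those of differently numbered arrays at -0.109 to 0.055. Not every array correlated best with its own number. With 3 arrays a group these values cannot decide whether same-numbered arrays were paired. Arg2, Dohh, Oaz3, Arg1, Otc, Slc25a2, Slc7a2, Mat1a, Bhmt, Atp13a4, Slc18b1, Sat2, Satl1 and Aoc1 had mean signals over all arrays below the table median. Of these only Arg2 and Dohh were called, and detection calls were not used.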

Other observations

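The probe sets that list a polyamine gene beside a further symbol belong to neither gene alone, and their values stand here unassigned; they were read after the other values were seen. The brighter of 2 probe sets listed for Oaz1 and its pseudogene Oaz1-ps had log2 signals of 10.79, 10.82 and 10.82 in 4EGI-1 cells, against 11.03, 11.13 and 11.11 in untreated cells. Every 4EGI-1 array was lower, by -0.28 ± 0.06 on average (SE; limma adjusted p = 0.0255 over all probe sets). The dimmer one gave 5.26, 5.29 and 5.58 in 4EGI-1 cells and 5.26, 5.24 and 6.24 in untreated cells, with groups that overlapped (difference -0.20 ± 0.28; adjusted p = 0.722).

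For Sms and Gm8234, listed together, 1 probe set had log2 signals of 11.07, 11.03 and 10.97 in 4EGI-1 cells, against 11.43, 11.37 and 11.37 in untreated cells, a difference of -0.37 ± 0.06 (SE; limma adjusted p = 0.0111 over all probe sets). The other one gave 11.31, 11.14 and 11.07 in 4EGI-1 cells and 11.57, 11.52 and 11.36 in untreated cells, a difference of -0.31 ± 0.09 (adjusted p = 0.0777). Of these 4 shared probe sets 2 passed, both lower with 4EGI-1, beside 6.99% of all 34760 probe sets called lower.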
